A study of Mus musculus with 10 samples.

Results

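The genes described here are 10 components of the circadian clock, Bhlhe40, Bhlhe41, Arntl, Clock, Cry1, Cry2, Per2, Nr1d1, Nr1d2 and Dbp, out of 20696 autosomal protein-coding genes. They were chosen by name for their place in the clock, but with earlier results of these data known. The lists of other clock genes and of cell markers set beside them were chosen in the same way. Counts over these lists are therefore descriptions and not tests. For each gene the H3K4me3 peaks at most 1 kb from a transcription start site (TSS) and the chromatin contacts of the bins holding a TSS were collected. The libraries used came from microglia of wild-type C57/Bl6 mice, sorted from brain as CD45+ CD11b+ CX3CR1+ cells with a low CD45 gate. There were 2 libraries each of H3K4me3 ChIP-seq, of its input and of PLAC-seq anchored on H3K4me3, while the 4 Hi-C libraries of the series, 2 from mice lacking the Sall1 enhancer and 2 wild type, were not analysed here. There was therefore 1 genotype and no comparison between conditions, and the hour of collection, which matters for a clock, is not given in the sources used here. Mice of the C57BL/6J experiments were males aged 8 to 12 weeks. H3K4me3 is the trimethylated lysine 4 of histone H3, which marks active promoters, and PLAC-seq captures DNA contacts of chromatin that carries this mark.

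The clock of mammalian cells is a loop of transcription and feedback. CLOCK and BMAL1, the product of Arntl, bind E-box DNA as a pair and activate Per and Cry genes, whose proteins return to the nucleus and repress that pair. DEC1 and DEC2, the products of Bhlhe40 and Bhlhe41, also bind E-boxes and repress, and both are used as transcription factors by macrophages. REV-ERBα and REV-ERBβ, from Nr1d1 and Nr1d2, repress Arntl in a second loop, and DBP activates output genes through D-box elements.

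Promoter sequence was read first, because the E-box CACGTG is the element through which several of these genes are known to be controlled. RefSeq windows of 250 bases before to 50 bases after the start (GRCm38.p6) were found for 8 of the 10 genes, in 11 windows. Bhlhe40 and Per2 were not matched. CACGTG stood in 2 of the 11 windows, those of Bhlhe41 and Cry1, against 7.15% of all 32851 windows. Among 24 windows of 17 other clock genes it stood in 5, from Ciart, Cipc, Per1 and Tef. The variant CACGTT, read on both strands, stood in 3 windows of the set, those of Cry1, Cry2 and Nr1d1, against 4.68% of all windows. It stood in 1 of the 24 windows of other clock genes, that of Rorb. The promoters of Bhlhe41, Cry1, Cry2 and Nr1d1 are shown over the 250 bases before the RefSeq start, on the strand of the gene. Capitals mark CACGTG or the variant, here as AACGTG on the strand shown.
Bhlhe41 (chr6:145865421-145865670, minus strand): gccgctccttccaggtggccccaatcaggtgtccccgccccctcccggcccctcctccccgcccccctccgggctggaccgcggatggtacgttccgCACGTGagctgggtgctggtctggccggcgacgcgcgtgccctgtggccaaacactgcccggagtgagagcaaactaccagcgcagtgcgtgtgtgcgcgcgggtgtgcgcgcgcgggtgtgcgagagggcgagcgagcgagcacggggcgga
Cry1 (chr10:85185055-85185304, minus strand): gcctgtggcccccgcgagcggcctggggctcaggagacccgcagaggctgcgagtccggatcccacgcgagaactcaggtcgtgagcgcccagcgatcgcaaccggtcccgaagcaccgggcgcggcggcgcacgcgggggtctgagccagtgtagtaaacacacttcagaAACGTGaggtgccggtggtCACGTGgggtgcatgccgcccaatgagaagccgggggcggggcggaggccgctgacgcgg
Cry2 (chr2:92434070-92434319, minus strand): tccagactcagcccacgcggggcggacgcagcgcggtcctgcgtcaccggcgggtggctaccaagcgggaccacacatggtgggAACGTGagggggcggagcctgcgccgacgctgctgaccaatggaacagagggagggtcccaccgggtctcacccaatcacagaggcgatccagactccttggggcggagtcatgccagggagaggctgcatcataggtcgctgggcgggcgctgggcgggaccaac
Nr1d1 (chr11:98775378-98775627, minus strand): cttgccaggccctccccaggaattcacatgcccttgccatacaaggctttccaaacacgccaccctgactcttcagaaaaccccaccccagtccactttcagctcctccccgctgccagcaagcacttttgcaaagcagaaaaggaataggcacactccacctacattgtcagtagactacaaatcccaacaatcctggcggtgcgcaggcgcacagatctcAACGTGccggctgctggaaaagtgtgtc

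The E-box of Bhlhe41 began at position -153 from the RefSeq start and that of Cry1 at -60. In Cry1 the variant lay upstream of the E-box, beginning at -79. The single variant match began at -166 in Cry2 and at -28 in Nr1d1. The core of the element bound by ROR and REV-ERB proteins was searched on both strands as TAGGTCA, with TGGGTCA as its second form. TAGGTCA stood in 1 of the 2 windows of Arntl, which is the known target of the second loop, beginning at position +31, against 2.61% of all windows. The 30 bases around it, with these letters in capitals, were as follows.
Arntl (chr7:113207529-113207558, plus strand): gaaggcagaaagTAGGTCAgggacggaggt

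TGGGTCA was in none of the 11 windows, against 3.98% of all windows. The D-box letters TTATGTAA (0.938% of all windows), with TTACGTAA as their second form (0.119%), and the cAMP element TGACGTCA (1.79%) were in none of the 11 either. In the 24 windows of other clock genes, TTATGTAA stood in 2 (Per3 and Timeless), TGACGTCA in 1 (Hlf) and TAGGTCA in 1 (Nfil3). Of the set, no match of any kind was found in the windows of Clock, Nr1d2 and Dbp. The windows of the 10-gene set were rich in CpG dinucleotides, with a median of 22.0 per window and a GC content of 65.7%, against 7 and 52.7% over all windows. Within the set, the fewest CpG dinucleotides, 9, were found in the window of Nr1d1 and in 1 of the 3 windows of Clock, and the most, 46, in another window of Clock. Windows of the other clock genes held 2 (Arntl2) to 54 (Nfil3 and 1 window of Csnk1e), so high counts were not particular to the set. The E-box and its variant each hold a CpG. Their share among windows of like CpG content was not computed, so the shares over all windows are an unlike base rate. A match describes letters and is not a bound site.

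H3K4me3 was read from 1 peak list per library, of 27845 peaks at a depth of 12.8 M tags for replicate 1 and 26574 peaks at 13.4 M tags for replicate 2. The labels do not say that the replicates came from separate animals, so the spread between them may be technical. As a check of the cell type, 10 of 10 microglia markers, P2ry12, Tmem119, Cx3cr1 and Sall1 among them, carried promoter H3K4me3 in both replicates. The share over all autosomal protein-coding genes was 59.4%. The tallest promoter peaks of the microglia markers had means of 145 to 301 tags per 10 M. Of the markers of other cells, the mark was found on 2 of 5 for neurons, 2 of 4 for astrocytes, 1 of 4 for oligodendrocytes, 2 of 4 for endothelial cells, 1 of 4 for border macrophages and 0 of 5 for monocytes and neutrophils. The oligodendrocyte gene, Mbp, had 162.8 and 210.3, above P2ry12 with 134.8 and 154.4. The endothelial gene Flt1 had a mean of 57.7, and the rest that carried the mark had means of 8.36 to 20.5. The part of other cells in the values of the clock genes was not tested.

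All 10 clock genes had promoter H3K4me3 in each replicate, against 59.4% of autosomal protein-coding genes (12291 of 20696, called marked genes from here on, which had a peak no more than 1 kb from a TSS in each library). Of 21 other clock genes, 20 were marked. The value of a gene is that of its tallest peak within 1 kb of a TSS, in tags per 10 M mapped tags, and intervals are exact Poisson 95% intervals that cover counting error only. The median of the 10 mean values was 212, with a range of 32.0 to 436, while the other clock genes had a median of 190 and all marked genes 220, with quartiles of 126 and 282. The 10 genes thus spanned most of the range of marked promoters, between percentiles 9.84 and 99.5.

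**Figure D1:**
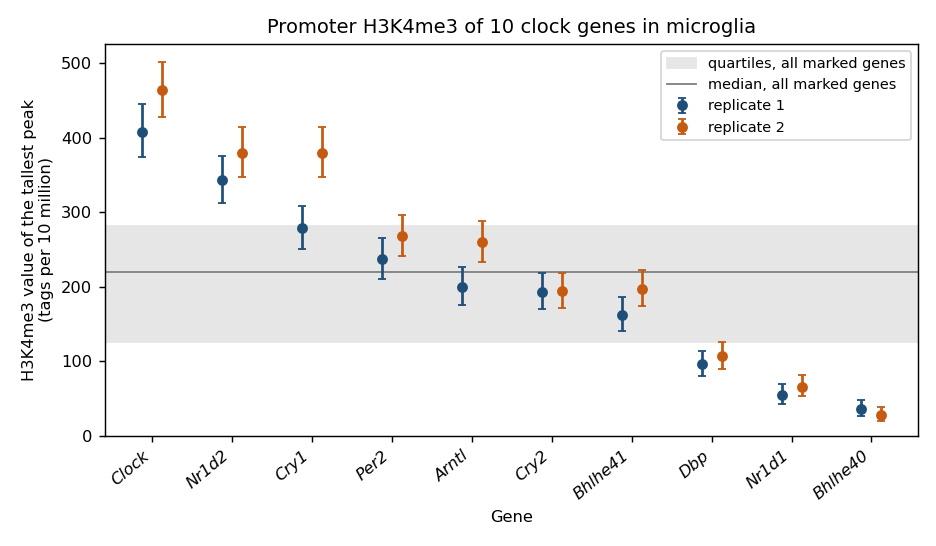
H3K4me3 value of the tallest peak within 1 kb of a TSS (y axis, tags per 10 M) for each of the 10 clock genes (x axis, in order of the mean), with points for replicates 1 and 2 and bars for exact Poisson 95% counting intervals. The grey band and line are the quartiles (126 and 282) and the median (220) of all marked genes, and both replicates of Clock (408.2 and 464.0) lay above the band and both of Dbp, Nr1d1 and Bhlhe40 below it.

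Of the activators, Clock had the tallest peak of the set, with 408.2 tags per 10 M in replicate 1 (interval 374 to 445) and 464.0 in replicate 2 (428 to 502). Its mean of 436 ± 39.5 (SD, n = 2) lay at percentile 99.5 of the marked genes. Arntl, its partner, reached 200.2 (176 to 226) and 259.6 (233 to 288), a mean of 230 ± 42.0 at percentile 53.8. The replicate values of the partners did not overlap.

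Among the repressors that act on this pair, Cry1 had 278.9 (251 to 309) in replicate 1 and 379.7 (348 to 414) in replicate 2, and its SD of 71.3 was the largest of the 10. Cry2 had almost the same value in both libraries, 193.2 and 193.9. Cry1 was higher than Cry2 by 1.44 times in replicate 1 and by 1.96 times in replicate 2, so the direction was shared but the size of the difference was not. Per2, which encodes the partner of the cryptochromes, had 236.8 and 267.8, a mean of 252 ± 21.9 at percentile 63.2.

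The E-box repressors differed more. Bhlhe41 had 162.0 (141 to 186) in replicate 1 and 196.9 (174 to 222) in replicate 2, against 35.8 (26.2 to 47.8) and 28.3 (20 to 38.8) for Bhlhe40. Bhlhe41 was thus 4.53 times higher than Bhlhe40 in replicate 1 and 6.96 times higher in replicate 2. Bhlhe40 had the lowest value of the set, at percentile 9.84, and its peaks still stood 37.6 and 108.7 times over input, from 46 and 38 tags. Input there was only 1.2 and 0.3 scaled tags, so the size of these folds is uncertain. The sum of all peaks within 1 kb gave a similar contrast, with 334.2 and 287.2 for Bhlhe41 and 67.0 and 67.9 for Bhlhe40.

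The REV-ERB genes also stood apart from each other. Nr1d2 had 342.8 (312 to 376) and 379.7 (347 to 414), at percentile 94.8, while Nr1d1 had 54.5 (42.5 to 68.9) and 65.6 (52.6 to 80.8), at percentile 15.3. The ratio of Nr1d2 to Nr1d1 was 6.29 in replicate 1 and 5.79 in replicate 2. The output gene Dbp had 95.8 and 106.7, at percentile 21.2.

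In descending order the means ran Clock, Nr1d2, Cry1, Per2, Arntl, Cry2, Bhlhe41, Dbp, Nr1d1 and Bhlhe40. Within each library, the first gene of 7 of the 9 pairs of neighbors in this order was higher in both replicates. Nr1d2 and Cry1 had the same value in replicate 2 (379.7), and Cry2 was lower than Bhlhe41 in replicate 2 (193.9 and 196.9). Of the 7 pairs, Per2 and Arntl had counting intervals that overlapped in both replicates, 4 pairs overlapped in 1 replicate, and Bhlhe41 with Dbp and Dbp with Nr1d1 in neither. The order depended on the measure. With all peaks within 1 kb summed, the mean was over 1.5 times that of the tallest peak for 7 of the 10 genes, Arntl (364) passed Cry1 (329) and Per2 (316), and Bhlhe41 (311) passed Cry2 (194). The value was higher in replicate 2 for 9 of the 10 genes, the exception being Bhlhe40, and 59.8% of all marked genes were higher in replicate 2. The median log2 ratio of replicate 2 to replicate 1 was 0.18 for the 10 genes and 0.06 for all marked genes, whose SD was 0.31.

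The 20 other marked clock genes ran from 9.88 to 401. Lowest was Npas2, the paralog of Clock, with 9.35 and 10.4, followed by the nuclear receptor gene Rorb with 17.9 in both replicates and Arntl2, the paralog of Arntl, with 24.2 and 37.3. Per1 had 89.6 and 108.2, below both Per3 (163.6 and 184.2) and Per2 (236.8 and 267.8). Highest were the kinase gene Csnk1d (425.4 and 377.4) and Fbxw11 (405.9 and 395.3), a part of a ubiquitin ligase. Clock and Arntl thus stood above these paralogs in both replicates. Of the output genes that share the D-box with Dbp, Tef had 167.5 and 210.3, Hlf 106.0 and 91.7, and the repressor gene Nfil3 210.3 and 185.7. Among the rest, Cipc, Timeless, Rora, Btrc, Usp2, Noct and Fbxl21 had means of 131 to 304, and Ciart had 46.0 and 55.9.

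The center of the tallest peak lay downstream of the nearest TSS in 9 of the 10 genes in both replicates, against 75.2% of marked genes. The same held for 16 of the 20 other marked clock genes. Bhlhe40 was the exception, with its tallest peak centered at -559 bp in replicate 1 and at -566 bp in replicate 2, upstream of the TSS. At Dbp the tallest peak spanned a TSS, with its center only 8 bp downstream in replicate 1 and 19 bp in replicate 2. A second upstream peak of Bhlhe40 had values of 31.2 and 23.9, and its only peak downstream of the TSS was found in replicate 2 at 15.7. Clock and Arntl had a peak on each side of the TSS in both replicates, the taller one downstream. At Clock these were 408.2 downstream and 257.9 upstream in replicate 1, and at Arntl 200.2 and 131.7. Nr1d2 had both of its peaks downstream, the second with 209.6 and 195.4. Cry2 had a single peak in each replicate, and Per2 had an upstream peak of 127.0 in replicate 1 alone.

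**Figure D2:**
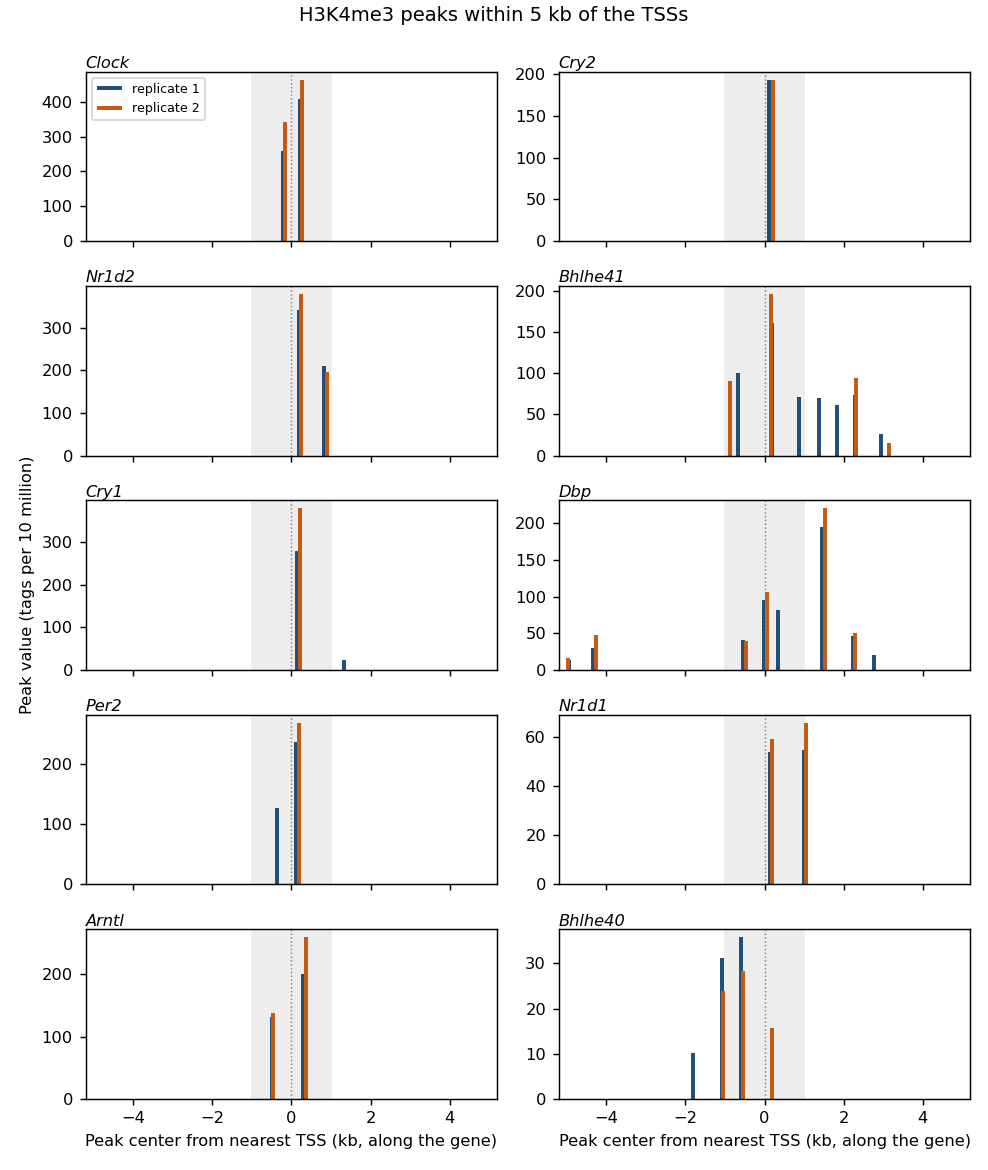
H3K4me3 peaks within 5 kb of the TSSs of each clock gene, with peak value (y axis, tags per 10 M, own scale for each gene) against the distance of the peak center from the nearest TSS along the gene (x axis, kb). Lines are single peaks of replicates 1 and 2 drawn slightly apart and the grey band is the 1 kb window. Peaks of Bhlhe41 and Dbp continued well past the window into the gene, and those of Bhlhe40 lay mainly upstream.

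The mark at Bhlhe41 reached far into the gene. In replicate 1, 7 peaks were centered between -653 and +2975 bp from the TSS, and 6 of them were downstream. Replicate 2 had 4 peaks over a like span, from -891 to +3110 bp, the second tallest of which stood 2292 bp into the gene at 94.7. The peaks of replicate 1 at +902, +1398 and +1850 bp (71.7, 70.1 and 61.5) had no counterpart in the list of replicate 2, and whether signal was present there was not tested. The merged length of peaks less than 1 kb apart was 4068 bp in replicate 1 and 188 bp in replicate 2. Over the set the median merged length, as the mean of both replicates, was 957 bp, against 568 bp for the other clock genes and 186 bp, about 1 peak, for all marked genes. For the 10 microglia markers it was 1055 bp, so a long mark was not particular to the set. This length differed widely between replicates at Dbp, with 3694 bp in replicate 1 and 902 bp in replicate 2, and at Cry1, with 1360 and 188 bp. At Dbp the tallest peak near the gene fell outside the 1 kb window, 1475 bp downstream with 194.8 (171 to 221) in replicate 1 and 1498 bp downstream with 220.0 (196 to 246) in replicate 2. By this peak Dbp would stand between Arntl and Cry2 in the order of the 10 genes. At Nr1d1 the peak about 1 kb into the gene (54.5 and 65.6) and the one at the TSS (53.8 and 58.9) were of nearly equal height, and their counting intervals overlapped in both replicates.

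Contacts came from 1 list of 26689 interactions between bins of 5 kb, in which both PLAC-seq libraries had been combined, so contacts have no replicate error, and bins that were not called together may still meet. At least 1 interaction was found for 3 of the 10 clock genes, against 37.8% of marked genes, and for 6 of the 20 other marked clock genes. Bhlhe41 had 7 interactions, Nr1d2 had 2 and Nr1d1 had 1, for a mean of 1.00 per gene against 1.35 for marked genes. Clock, Arntl, Cry1, Cry2 and Bhlhe40 had no interaction with either bin within 10 kb of the gene. The tallest promoter of the set, Clock, and the lowest, Bhlhe40, were alike in this. No TSS of another protein-coding gene shared a TSS bin with the 10 genes, and none of the contacted bins held one.

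**Figure D3:**
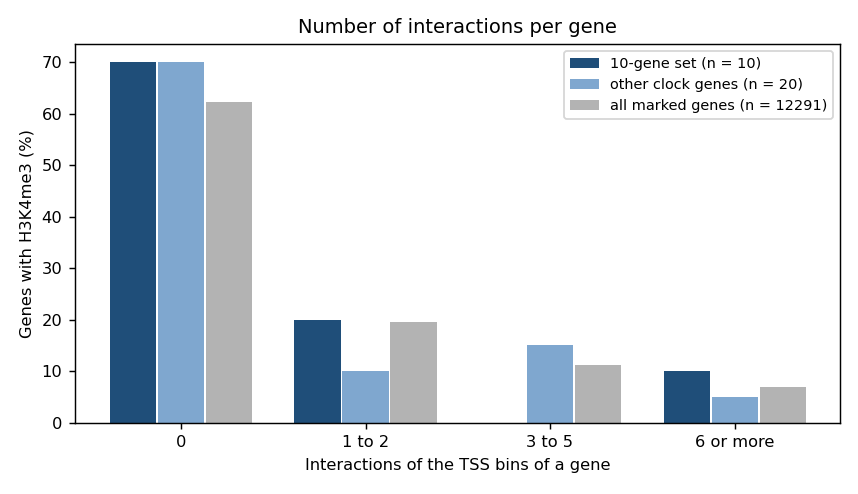
Share of genes with H3K4me3 (y axis, percent) by the number of interactions of their TSS bins (x axis), for the 10-gene set, the other marked clock genes and all marked genes. No interaction was found for 70.0% of the 10 genes, 70.0% of the other clock genes and 62.2% of all marked genes, and 1 gene of the 10, Bhlhe41, had 6 or more.

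All 7 contacts of Bhlhe41 ran upstream, over 235 to 410 kb, and 5.09% of marked genes had as many or more. Together they held 69 read pairs against 11.2 expected, a ratio of 6.14. Such sums hold called pairs only, and no pair of the list had a ratio under 2.00. A summed ratio well above 1 therefore follows from the calling. The strongest joined the promoter bin to chr6:146225001-146230000, 360 kb away, with 13 read pairs against 1.51 expected, a ratio of 8.59 (Poisson 95% interval 4.58 to 14.7) at a false discovery rate of 1.07e-06. Its ratio was at percentile 92.9 of the 4322 interactions that spanned the same 235 to 410 kb, whose median was 5.29. It was ranked because it was the highest of the 7, a choice that in itself favors a high percentile. The other 6 had 8 to 10 read pairs each and ratios of 5.26 to 6.28, close to that median. None of the 7 reached 20 read pairs, and 1, the strongest, had a false discovery rate of at most 0.0001.

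6 of the 7 contacted bins lay in Itpr2, which encodes a receptor that releases calcium from internal stores, and the seventh lay outside protein-coding genes. Over the 3 bins that cover the Bhlhe41 gene, 12 of 13 interactions reached into Itpr2. All 13, again called pairs only, held 122 read pairs against 21 expected, and the contacted bins ran from chr6:146100001 to 146285000. The promoter of Itpr2 itself, 637 kb from the Bhlhe41 TSS, carried H3K4me3 of 268.8 and 297.6 and had 0 interactions. Sspn, which lies between them, had values of 72.5 and 54.5 and 1 interaction.

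The bin of the strongest Bhlhe41 contact held a small H3K4me3 peak in both replicates, of 9.35 tags per 10 M (12 tags, 6.54 times input) in replicate 1 and 12.7 (17 tags, 6.08 times input) in replicate 2. It overlapped an exon of Itpr2, which is transcribed from the minus strand. The contact joins bins of 5 kb, so its end cannot be placed at a point within the bin. The peak as called in replicate 1 is shown as a part of that bin. None of the clock elements searched was found in it, so that it has no capitals.
Itpr2 exon and flank (chr6:146229628-146229812, plus strand, 58.4% GC): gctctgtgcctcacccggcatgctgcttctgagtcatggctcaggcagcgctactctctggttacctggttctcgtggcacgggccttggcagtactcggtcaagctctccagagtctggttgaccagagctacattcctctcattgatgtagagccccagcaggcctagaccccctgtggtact

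**Figure D4:**
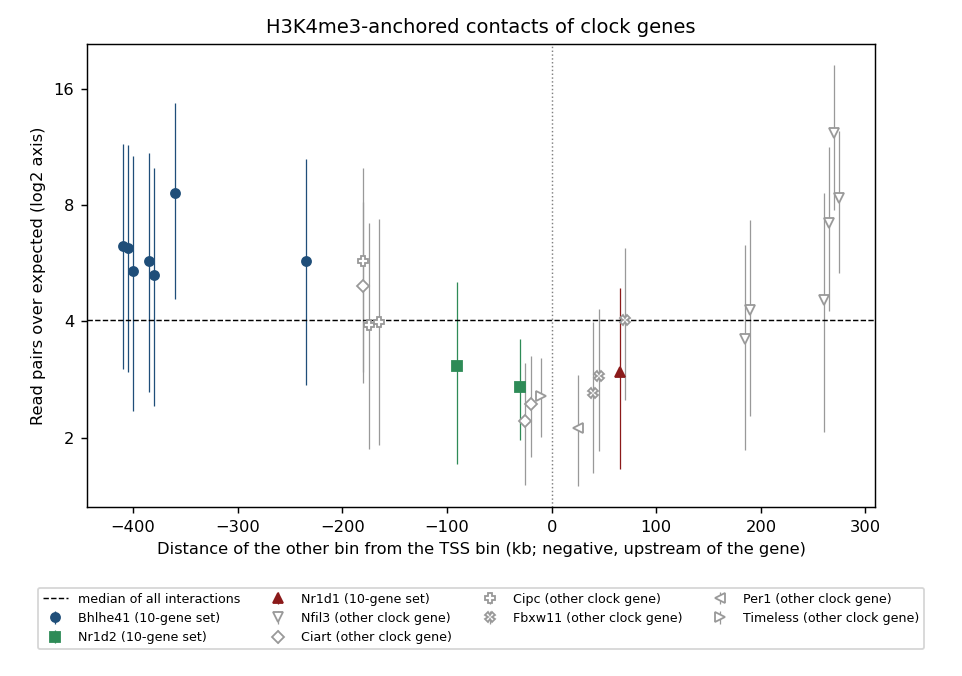
Read pairs over expected (y axis, log2 scale) against the distance of the contacted bin from the TSS bin (x axis, kb, negative upstream of the gene) for every interaction of the 10-gene set (filled) and of the other clock genes (open), with exact Poisson 95% intervals as bars. The 7 contacts of Bhlhe41 lay 235 to 410 kb upstream, all above the median of all interactions (dashed, 4.03), and the 3 of Nr1d2 and Nr1d1 lay within 90 kb and below it. The dashed median spans all distances.

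Nr1d2 had 2 contacts, both upstream and near. One joined it to the bin at 30 kb that holds untranslated sequence of Rpl15, a ribosomal protein gene, with 45 read pairs against 16.7 expected, a ratio of 2.70 (1.97 to 3.61). The other reached 90 kb into Ube2e1, which encodes a ubiquitin-conjugating enzyme, with 15 read pairs against 4.90 expected, a ratio of 3.06 (1.71 to 5.05). The median ratio of all 6885 interactions over 30 to 90 kb was 3.20, and both lay below it. Medians differed with distance (3.33 at 65 kb and 5.29 over 235 to 410 kb). Neither contact was set beside contacts of its own distance alone. Neither TSS was in the contacted bin, but at a resolution of 5 kb both were close, that of Rpl15 626 bp and that of Ube2e1 1859 bp past the end of the bin. The Rpl15 bin held a small H3K4me3 peak in replicate 2 alone (10.4). Rpl15 and Ube2e1 each had 0 interactions of their own TSS bins. The Ube2e1 bin held an H3K4me3 peak inside an intron, of 22.6 (29 tags) and 19.4 (26 tags), which is shown for comparison with the Itpr2 peak. It also held none of the clock elements searched, but had 16 CpG dinucleotides against 5 in the Itpr2 peak.
Ube2e1 intron (chr14:18327039-18327223, plus strand, 71.4% GC): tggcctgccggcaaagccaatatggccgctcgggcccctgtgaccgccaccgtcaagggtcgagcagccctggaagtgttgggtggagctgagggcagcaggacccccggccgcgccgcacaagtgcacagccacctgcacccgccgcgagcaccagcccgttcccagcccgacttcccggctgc

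Nr1d1 had a single contact, 65 kb downstream, in a bin that holds an exon of Med24, a subunit gene of the Mediator complex. It had 15 read pairs against 5.07 expected, a ratio of 2.96 (1.66 to 4.88), and a false discovery rate of 0.00936, near the highest in the list, 0.01000, so that the contact was lost under either stricter limit. A bin upstream of the gene, chr11:98785001-98790000, met the same Med24 bin with 15 read pairs against 3.78 expected, a ratio of 3.97. Whether these contacts are separate was not tested. Per2 had no contact of its promoter, but a bin inside the Per2 gene met the bin of the Traf3ip1 TSS, 65 kb away, with 24 read pairs against 7.14 expected, a ratio of 3.36. Traf3ip1, a gene of cilia, carried promoter H3K4me3 of 250.9 and 255.8.

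Among the other clock genes, Nfil3, which encodes the repressor that competes with DBP at D-boxes, had 6 interactions, 185 to 275 kb downstream, with 99 read pairs against 15.6 expected, a ratio of 6.34. This ratio was close to the 6.14 of Bhlhe41, with both genes reaching over 180 kb, but both sums hold called pairs only. Ciart, Cipc and Fbxw11 had 3 interactions each, and Per1 and Timeless 1 each. Bhlhe41 had H3K4me3 of 162.0 and 196.9, and Nfil3 210.3 and 185.7, so that both genes with 6 or more contacts had promoter values under the median of all marked genes. The marked clock genes without any contact included Csnk1d (425.4 and 377.4) and Csnk1e (302.3 and 424.4), kinase genes of the clock with taller peaks than either. Tall peaks with contacts were also found, at Fbxw11 (405.9 and 395.3, 3 interactions) and Nr1d2 (342.8 and 379.7, 2 interactions). A relation of peak height to contacts was not tested.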

How the data were processed

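H3K4me3 ChIP-seq, input and PLAC-seq of sorted wild-type microglia were analysed, with 2 libraries of each kind grouped as labelled. The ChIP-seq peaks were deposited by the authors as separate lists, and the submitters' processing notes name Bowtie2 and HOMER with mm10. Each peak has a deposited signal in tags per 10 M mapped tags, scaled by the authors, and a deposited tag count. Input tags, fold over input (a ratio), the p-value against input and the focus ratio (a fraction) were also given by the authors for each peak. The study's methods name another pipeline for the peaks that guided contact calling, so the deposited peaks may differ from those. Contacts were called by the authors with MAPS at 5 kb over both PLAC-seq libraries at once, with a deposited read pair count, an expected count and a false discovery rate (an adjusted p-value). Total read pairs are unknown here, and the calls depend on them.

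Genes and TSSs of protein-coding transcripts were taken from GENCODE M21 basic (GRCm38), keyed by symbol, on the 19 autosomes. A gene was marked when a peak lay within 1000 bp of a TSS in both replicates. Peaks fewer than 1000 bp apart were merged for length. Depth was tag count over signal, and all values rest on 38 to 625 tags for the tallest peaks. Promoter windows came from the RefSeq table (GRCm38.p6) and were identical to the genome for every clock gene. Peak to TSS assignment was tested on simulated data. Python 3.11.15, pandas 2.3.3, numpy 2.4.6, scipy 1.17.1, matplotlib 3.10.9 and pysam 0.24.0 were used. No group was compared with another, so no test was run. All 10 genes were named, with other clock genes named where they had H3K4me3, lacked it or had an interaction, except some that are not reported here. Itpr2, Sspn, Rpl15, Ube2e1, Med24, Traf3ip1, Csf3, Thra, Fam83e and Cyth2 were named after their values were seen. The 10 genes and the lists were chosen with earlier results of these data known. Alternatives were the promoter window, a fold minimum, single replicates, stricter or clustered contacts, other TSS bins and a longer motif window. Protein identity of the related pairs was planned and not run.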

Additional observations from a re-analysis of the deposited data

How the results depend on the processing

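All 10 clock genes were marked, and 20 of the 21 others, with windows of 500 bp or 2 kb and with a fold over input of at least 10. Contacts were more dependent on the setting. With at least 20 read pairs, 1 of the 10 genes had an interaction and the 10 genes held 1 interaction in all, that of Nr1d2 with Rpl15. The median interaction of the whole list had 17 read pairs, so this limit is strict for any gene. With false discovery rates up to 0.0001 the total was 2 interactions, in 2 genes. With 1 interaction per cluster it was 5, of which Bhlhe41 had 2, and with bins next to a TSS bin added it was 19, of which Bhlhe41 had 13. The 5-prime-most TSS alone left it at 10. The number of other clock genes with an interaction stayed between 4 and 8 over these settings, against 6. The share of all marked genes was not computed at these settings, so the changes cannot be read as a trait of clock genes. Summing the peaks within 1 kb moved the value of 8 of the 10 genes by more than the replicate SD (736 for Clock, 182 for Dbp), while a window of 500 bp moved none. With 2 replicates, leaving one out cannot move a value by more than their SD, so it says nothing of stability. The Cry1 value was 380 without replicate 1 and 279 without replicate 2. In windows of 1000 bases before to 200 after the TSS, 3 genes held TAGGTCA and 1 held TGGGTCA. The E-box was held by 3 genes in these longer windows, against 2 in the shorter ones, and the added gene was Nr1d1. The E-box variant was held by 3 genes at either length. The share of all promoters was not computed for the longer windows, so the added matches may reflect window length alone. No paired analysis was possible because no groups were compared and no test was run. Contacts of Bhlhe41 rest on 8 to 13 read pairs each.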

Other observations

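Of the 9 interactions near Nr1d1 that did not involve its TSS bin, 6 came from 1 bin upstream of the gene. This bin, chr11:98785001-98790000, held an H3K4me3 peak of 80.2 and 79.1 tags per 10 M, taller than that of Nr1d1 itself (54.5 and 65.6), and met bins over 45 to 90 kb across Thra, Med24, Csf3 and Psmd3. Its strongest contact was with the bin of the Csf3 TSS, the gene of granulocyte colony-stimulating factor, with 25 read pairs against 4.51 expected, a ratio of 5.55 at a false discovery rate of 5.18e-09. Csf3 had no promoter peak within 1 kb in either replicate. With the bin of the TSS of Thra, which encodes a thyroid hormone receptor, the same bin had 18 read pairs against 6.90 expected.

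Next to Dbp, 1 interaction joined the bin of the Fam83e TSS with that of the Cyth2 TSS, 90 kb apart, with 18 read pairs against 6.30 expected, and neither end lay in Dbp.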
